A study of Mus musculus with 6 samples.

Results

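The genes described here were selected on their measured levels as the genes with consistently more counts in circulating than in muscle fibroadipogenic progenitors (FAPs). A gene belonged to the set when it had at least 10 counts per 1000000 (CPM, with the 18S ribosomal RNA symbols left out of the total) in each of the 3 circulating libraries and when its lowest circulating CPM was at least 2 times its highest muscle CPM. Symbols of predicted genes, pseudogenes and cytosolic ribosomal proteins and 9 named genes were left out. The rule gave 172 genes of 33274 in the table. FAPs came from peripheral blood (3 libraries, circulating replicates 1, 2 and 3) and from muscle (3 libraries, muscle replicates 1, 2 and 3) of mice that had undergone occlusion of the middle cerebral artery (MCAO), a stroke model that both groups share. The labels give MCAO in the place of the strain and give no background strain, age, sex, time after the occlusion or sorting gate, and no library without MCAO was analysed. They also do not say whether the 3 libraries of a group came from separate mice, so the spread between them may be technical.

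FAPs are mesenchymal cells of the muscle interstitium, marked by the receptor Pdgfra, that support regeneration and can become fibroblasts or adipocytes. Related mesenchymal progenitors sit around blood vessels in many tissues, where their surface and secreted genes differ from those of the interstitial cells. In a sorted population, transcripts of rarer cells and a low level of reads that fall on all genes, expressed or not, are counted together with transcripts of the sorted cells.

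Members of different kinds recur below, and 250 bases upstream of the RefSeq start site are shown for an example of each. They are Zyx, an abundant cytoskeletal gene, H2-Aa, a class II antigen presentation gene, and Vmn2r97, a pheromone receptor gene whose level was close to that of silent genes. Sequences are those of RefSeq for build GRCm38.p6, 5′ to 3′ on the strand of the gene. Capitals mark matches, on either strand, to any of 5 short motifs. They are the GC box, spelled GGGCGG, and the CCAAT box, spelled as its name says. The TATA box was searched as TATAAA. The cAMP response element was searched as TGACGTCA. AP-1 sites were searched as TGANTCA. No motif lies inside another.
Zyx, chr6:42349578-42349827, plus strand: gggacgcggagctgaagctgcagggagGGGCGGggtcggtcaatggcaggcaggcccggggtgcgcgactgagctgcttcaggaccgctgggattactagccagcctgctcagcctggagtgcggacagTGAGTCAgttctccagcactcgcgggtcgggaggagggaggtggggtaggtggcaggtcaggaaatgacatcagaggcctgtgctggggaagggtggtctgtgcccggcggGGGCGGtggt
H2-Aa, chr17:34287824-34288073, minus strand: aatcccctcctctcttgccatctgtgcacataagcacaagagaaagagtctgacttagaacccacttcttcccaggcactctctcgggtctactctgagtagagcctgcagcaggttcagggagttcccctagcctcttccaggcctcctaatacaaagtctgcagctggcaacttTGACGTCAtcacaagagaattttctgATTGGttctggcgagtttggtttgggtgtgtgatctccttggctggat
Vmn2r97, chr17:18914072-18914321, plus strand: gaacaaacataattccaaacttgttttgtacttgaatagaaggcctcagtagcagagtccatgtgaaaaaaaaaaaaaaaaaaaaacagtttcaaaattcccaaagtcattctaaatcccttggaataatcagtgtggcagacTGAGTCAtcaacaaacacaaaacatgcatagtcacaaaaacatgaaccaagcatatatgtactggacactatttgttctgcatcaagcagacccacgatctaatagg
The Zyx promoter held GC boxes starting 223 and 10 bases upstream of the start site and an AP-1 match 121 bases upstream. The H2-Aa promoter held the cAMP response element 74 bases upstream and a CCAAT box on the other strand 48 bases upstream, and no GC box. The Vmn2r97 promoter had an AP-1 match 107 bases upstream. Upstream sequence was matched by symbol for 135 of the 172 members.

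Counts without 18S ran from 3106011 to 7880709 in circulating and from 12663430 to 15864333 in muscle libraries, so that 10 CPM stood for 78.8, 31.1 and 42.3 counts in circulating replicates 1, 2 and 3. Genes that mark FAPs were abundant in both groups. Pdgfra was at 384, 463 and 416 CPM in the circulating libraries and at 1082, 709 and 678 CPM in muscle. The proteoglycan gene Dcn was at 9742, 8495 and 8207 CPM in circulating and at 13974, 11736 and 14098 CPM in muscle libraries. Lum, Col1a1 and Col3a1, of the same markers, were also lower in every circulating than in every muscle library. Ly6a and Cd34 overlapped between the groups. The pan-leukocyte gene Ptprc was at 15.6, 30.3 and 29.1 CPM in circulating and at 10.05, 10.4 and 5.99 CPM in muscle libraries, which in circulating libraries was 1.06 to 1.81 times the level of silent genes of its length, defined below. In bulk libraries fewer cells of a type and less RNA per cell cannot be told apart.

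The 172 members held a small part of each transcriptome. Their summed level was 6069, 6648 and 6087 CPM in circulating replicates 1, 2 and 3 and 1313, 1479 and 1202 CPM in muscle replicates 1, 2 and 3. Single members were modest in level, with a mean of at least 100 CPM for 8 of them and under 20 CPM for 81. The ratio of mean circulating to mean muscle CPM ran from 2.62 to 30.8 with a median of 4.24, and is called the fold below. Of 6534 genes with at least 10 CPM in every circulating library, 188 passed the CPM rule before names were removed (2.88%), and 158 of 6093 genes passed its mirror image in muscle. By name 16 of the 188 were left out, among them Dpp4, Efemp1, C3, Sema3c, H2-Ab1, Laptm5 and Stmn4.

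The set depended on how libraries were scaled. With library sizes scaled by the trimmed mean of M values (TMM), which assumes that most genes do not change, 31 of the 172 members still met the rule. Scaling on abundant genes gave 281 genes, all 172 members among them, and counting 18S in the totals gave 20. Leaving out a library relaxes the rule, and gave 617, 286 and 369 genes without circulating replicate 1, 2 and 3 and 255, 426 and 257 without muscle replicate 1, 2 and 3. Levels below are therefore relative to all counts other than 18S.

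Members split by how far they stood above a floor of reads found on silent genes. That floor was the median CPM per kilobase of exon over 412 receptor genes for pheromones, tastes and trace amines, known mainly from sensory organs and called silent here. It was 0.801, 1.20 and 0.877 in circulating replicates 1, 2 and 3 and 0.327, 0.429 and 0.272 in muscle replicates 1, 2 and 3. The circulating floor (0.960 ± 0.213, SD, n = 3) was thus 2.80-fold higher than that of muscle (0.343 ± 0.0795), and the lowest circulating library was 1.87 times the highest muscle library (two-sided exact permutation p = 0.1, the smallest that 3 against 3 libraries can give). In the lowest of their circulating libraries, 27 of 169 members with a known exon length were at 10 or more times the floor expected for their length, 23 at 3 to 10 times, and 119 (70.4%) at under 3 times. Among all 6450 genes of at least 10 CPM with a length, 36.0% were under 3 times the floor. Both limits were set after the levels had been seen.

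**Figure D1:**
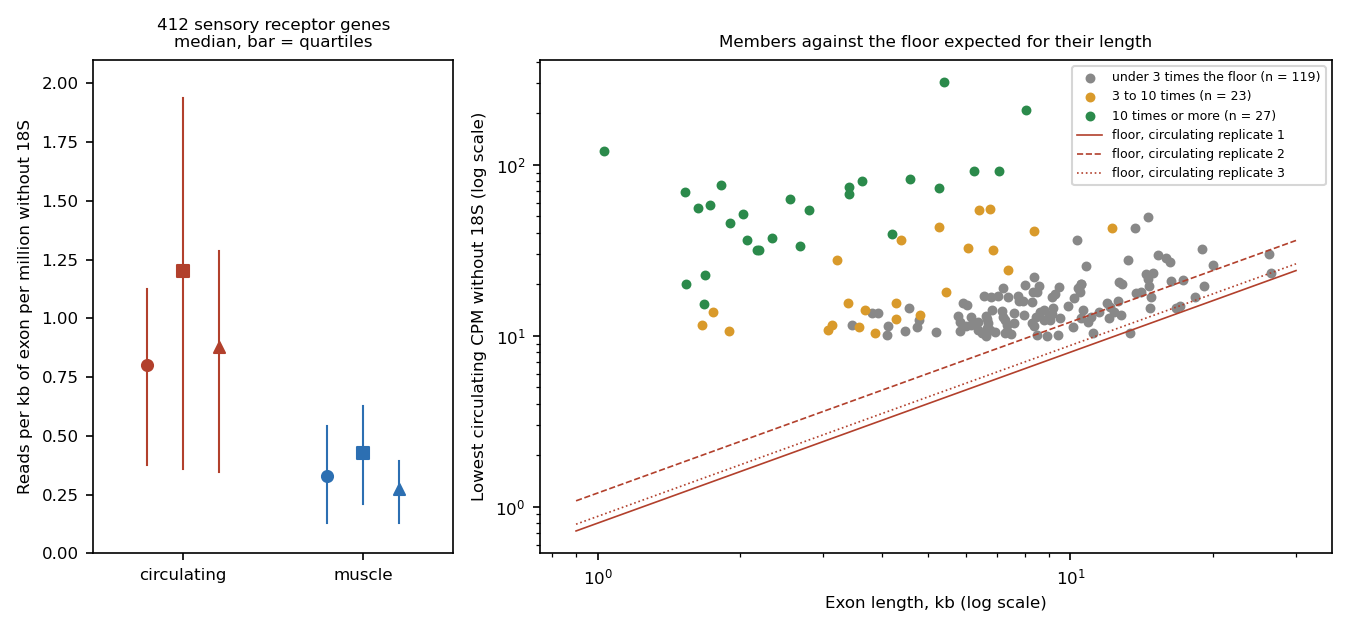
Left: floor of reads over silent sensory receptor genes in each library (circles, squares and triangles for replicates 1, 2 and 3; bars span the quartiles over genes); every circulating median is above every muscle median. Right: lowest circulating CPM of each member against its exon length on log axes, with lines for the floor of each circulating library; the 119 members under 3 times the floor lie near the lines, some of them below, and the 27 at 10 times or more lie far above them at shorter lengths.

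The median exon length was 8782 bases for members under 3 times the floor, 2339 for the 27 at 10 times or more and 5922 for all genes of at least 10 CPM. The classes divide by a floor that grows with length, and the rule asks for at least 10 CPM, so this order of lengths follows from how the classes were made. For a gene of 8782 bases the floor alone was 7.04, 10.6 and 7.71 CPM in circulating replicates 1, 2 and 3 and 2.88, 3.77 and 2.39 CPM in muscle. When the floor was subtracted from each CPM, all 27 members at 10 times or more, 13 of the 23 between and 16 of the 119 near the floor still met the rule. The classes were made with the same floor, so the order of these counts was largely fixed in advance and is no separate support. The minimum of 10 CPM was asked again after subtraction, so a member could fail on level alone. H2-Aa failed at 122, 8.96 and 19.1 CPM in circulating and at most 1.36 CPM in muscle libraries. Foxp2 also lost its gap, at 8.48, 6.11 and 6.68 CPM against up to 4.56 CPM. The part of the floor in the difference of members that no longer met the rule was not tested.

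The members fell into 12 roles, assigned from their names, and 31 took none. Levels clear of the floor were found in 10 of these roles. None of the 12 ciliary or axonemal genes and none of the 10 sensory receptor genes with a length (2 more had none) was at 3 or more times the floor in every circulating library. Mitochondrial and metabolic genes had the most members at 3 times the floor or more, with 5 of 15 at 10 times or more and 6 between.

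**Figure D2:**
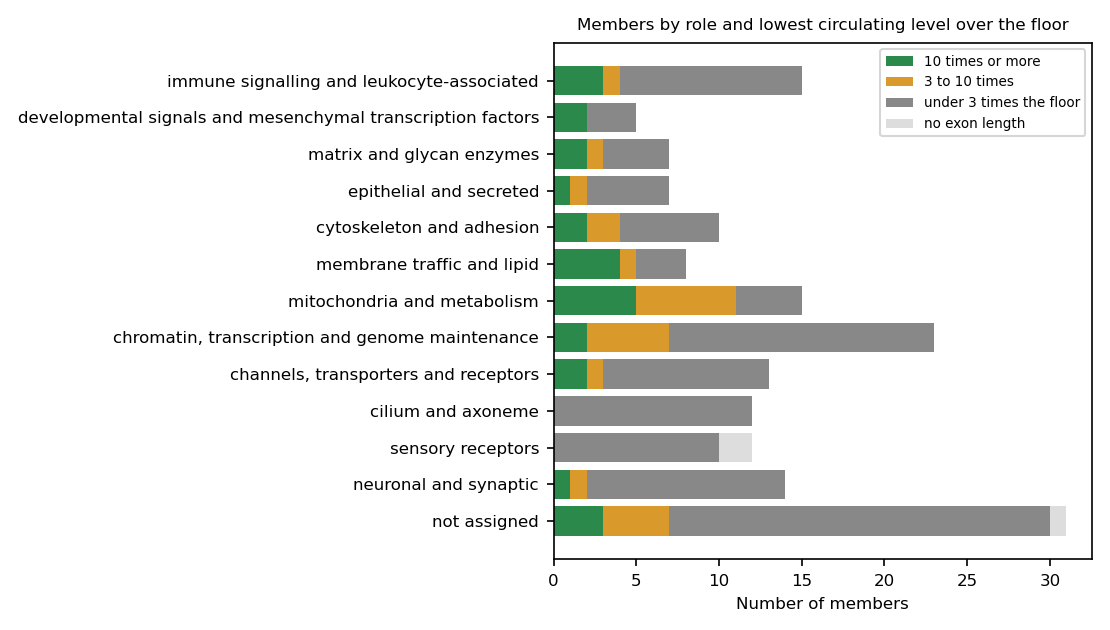
Number of members in each role (bar length) by their lowest circulating level over the floor of reads for their exon length (colours). The cilium and sensory receptor bars hold no member known to be at 3 times the floor or more (2 sensory receptor genes had no length), and the mitochondrial bar holds 11 of 15.

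Among genes of the interleukin-1 family and its receptors, Il18, Il18r1 and Il1r2 were members. Il18 encodes interleukin-18, a cytokine stored as a precursor and released after inflammasome activation. It was at 186, 119.8 and 186 CPM in circulating replicates 1, 2 and 3 and at 48.8, 22.4 and 4.6 CPM in muscle replicates 1, 2 and 3. The circulating libraries lay within 1.56-fold of each other, while muscle replicate 3 was far below muscle replicate 1. The fold was 6.49, and on the log2 scale of edgeR with TMM the difference of 2.06 became 1.52 without muscle replicate 3 and 3.07 without muscle replicate 1. Il1r2, the decoy receptor that binds interleukin-1 without signalling, was at 152, 87.6 and 45.6 CPM in the circulating libraries against 14.5, 18.3 and 12.4 CPM in muscle. Il18r1, the ligand-binding chain of the interleukin-18 receptor, was at 46.1, 32.5 and 13.2 CPM in the circulating libraries against 3.73, 3.47 and 2.71 CPM in muscle. Both receptor genes were highest in circulating replicate 1 and lowest in circulating replicate 3, with no overlap with muscle, which the rule fixes. They are neighbours on the RefSeq map, with 3 coding genes between them.

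Other genes that act with these cytokines, chosen after their values were seen, did not share this pattern. The signalling receptor Il1r1 was at 119, 40.6 and 28.6 CPM in circulating and at 159, 82.4 and 122.9 CPM in muscle libraries. Il18rap, a further chain of the interleukin-18 receptor, was at 5.96, 15.5 and 14.6 CPM against 2.06, 8.13 and 2.65 CPM, which was 1.10 to 2.47 times the floor in circulating libraries. The groups overlapped for both genes. Il18bp, the soluble protein that binds interleukin-18, was at 2.03, 2.58 and 3.54 CPM in circulating and at 2.82, 3.95 and 40.9 CPM in muscle libraries, which also overlapped.

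Counts of listed genes without overlap between the groups are read against all genes on the same CPM scale. Of 31532 genes with a count, 23.6% were higher and 3.62% lower in circulating libraries with no overlap. The shares depended on level. They were 11.5% higher and 9.61% lower for genes with a mean of at least 10 CPM over the 6 libraries. Genes with a mean of 1 to 10 CPM had 41.5% higher and 1.06% lower, and genes under 1 CPM 13.2% and 1.25%. These bands of level were set after the values had been seen. In the list of 20 chemokines and cytokines Il18 was the only member of the set. Of the list, 2 genes were higher and 8 lower, and these 10 were all among its 16 genes with a mean of at least 10 CPM.

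Class II antigen presentation gave the members with the largest folds. H2-Aa encodes the alpha chain of a class II molecule, H2-DMa part of the complex that loads its peptide, and Cd74 the invariant chain that guides it to the endosome. H2-Aa was at 125, 13.5 and 22.4 CPM in circulating replicates 1, 2 and 3 and at 1.52, 1.9 and 2.4 CPM in muscle replicates 1, 2 and 3. H2-DMa was at 120.4, 11.6 and 17.2 CPM in the circulating libraries against 0.837, 2.37 and 1.64 CPM in muscle. Cd74 was at 16.4, 65.0 and 15.4 CPM in the circulating libraries against 2.89, 0.79 and 1.32 CPM in muscle. Circulating replicate 1 was far above the other circulating libraries for H2-Aa and H2-DMa, while Cd74 was highest in circulating replicate 2. The folds of 27.7, 30.8 and 19.3 became 9.28, 8.93 and 9.51 when the highest circulating library was left out. For H2-Aa and H2-DMa circulating replicate 2 was at 2.96 and 2.80 times the floor, so these genes lie just under the limit of 3.

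Of 10 class II genes listed, 7 were higher in the circulating libraries with no overlap and none lower. Of the 7 with a mean of at least 10 CPM it was 6, beside 11.5% of all genes at that level. Of these, 4 passed the CPM rule, the 3 members and H2-Ab1, so the rule fixed their lack of overlap. Muscle levels of H2-Aa and H2-DMa were at most 2.40 and 2.37 CPM, so they reached that mean only through the circulating libraries. The count is thus partly set by the selection. The list's summed level was 151 to 501 CPM in circulating and 18.7 to 57.2 CPM in muscle libraries. H2-Ab1, the beta chain that pairs with H2-Aa and was left out of the set by name, was at 90.0, 81.5 and 57.4 CPM against 8.45, 5.53 and 1.77 CPM. It was thus more even over the circulating libraries than H2-Aa. H2-Eb1 overlapped between the groups, since muscle replicate 1 was at 39.4 CPM. Ciita, the master regulator of class II genes, was at 3.05, 2.90 and 8.98 CPM in circulating libraries, which was 0.253 to 1.07 times the floor.

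Some markers of blood cells were also higher in circulating libraries, and the library that was highest differed between them. Lcp1, the actin-bundling L-plastin of leukocytes, is itself a member and was at 76.3, 33.5 and 12.8 CPM in the circulating libraries against 3.27, 5.29 and 2.27 CPM in muscle. Circulating replicate 1 was highest for it. Of 15 pan-leukocyte genes 9 were higher in circulating libraries with no overlap. They were 3 of the 4 genes with a mean of at least 10 CPM, where 11.5% of all genes were higher. At 1 to 10 CPM they were 6 of the 11, where 41.5% of all genes were higher. Of the list 2 passed the CPM rule, Lcp1 included, which fixes their lack of overlap. The summed level of the 15 was 121 to 347 CPM against 42.5 to 69.7 CPM in muscle. Of 23 monocyte and macrophage genes 13 were higher with no overlap. They were 5 of the 12 with a mean of at least 10 CPM and 8 of the 11 at 1 to 10 CPM, beside 11.5% and 41.5% of all genes. Cd74 is among the 13 because of the rule. The sums of the 23 were 135 to 1482 CPM against 44.5 to 68.1 CPM. Tyrobp, an adaptor of myeloid receptors, was at 1.14, 56.0 and 1.42 CPM in circulating libraries and at 0, 0 and 0.252 CPM in muscle. Circulating replicate 2 alone was high for it. Lyz2, the lysozyme of myeloid cells, was at 36.0, 57.3 and 0.472 CPM in circulating and at 0.152, 1.66 and 2.21 CPM in muscle libraries. Cd68, a lysosomal protein of macrophages, was at 2.54, 23.8 and 51.5 CPM against 1.37, 3.71 and 19.7 CPM. The groups overlapped for Lyz2 and Cd68. Csf1r and Adgre1, of the same monocyte and macrophage markers, did not overlap. Csf1r was at 14.8, 78.2 and 8.27 CPM against 2.44, 4.26 and 1.39 CPM. Adgre1 was at 4.19, 14.8 and 10.4 CPM against 2.13, 2.37 and 1.77 CPM. The leukocyte markers Itgb2 and Coro1a also did not overlap, whereas Cd53 did. Laptm5, left out by name, was at 186, 70.8 and 16.8 CPM against 0.837, 0.948 and 1.32 CPM. It was highest in circulating replicate 1. The platelet gene Pf4 was at 40.5, 5.15 and 0 CPM in circulating and at 3.50, 4.58 and 0 CPM in muscle libraries, which overlapped. Of 14 neutrophil genes 7 were higher with no overlap and none lower. They were all 3 with a mean of at least 10 CPM and 4 of the 9 at 1 to 10 CPM, beside 11.5% and 41.5% of all genes. The sums of the 14 were 53.4 to 277 CPM in circulating against 12.5 to 22.8 CPM in muscle libraries. The part of blood cells in the class II and interleukin members was not tested.

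The remaining leukocyte-associated members were near the floor, as was Lcp1 in circulating replicates 2 and 3, at 2.93 and 1.53 times it. Ptpn22, a phosphatase of lymphocytes, Inpp5d, which encodes the lipid phosphatase SHIP1, Wdfy4, Rasgrp3, the inhibitory receptor genes Pirb and Lair1, Tnip3 and the transcription factor gene Myb lay between 10.02 and 39.3 CPM in circulating libraries. Each was under 3 times the floor in at least 1 circulating library. Myb sat at the minimum of the rule, at 10.02, 17.1 and 10.2 CPM in circulating and 1.52, 3.95 and 2.71 CPM in muscle libraries.

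Cytoskeletal and adhesion members included the gene with the highest CPM of the set, a scale that does not account for length. Zyx encodes zyxin, a LIM protein of focal adhesions and actin fibres. It was at 304, 303 and 471 CPM in circulating replicates 1, 2 and 3 and at 93.3, 107 and 91.7 CPM in muscle replicates 1, 2 and 3. Circulating replicate 3 was the highest, and the muscle libraries lay close together. The means were 359 ± 96.9 against 97.2 ± 8.24 CPM (SD, n = 3), a fold of 3.70. Mob2, a partner of NDR kinases that act on the cytoskeleton and cell cycle, was at 92.4, 386 and 153 CPM in the circulating libraries against 18.2, 24.4 and 32.0 CPM in muscle. Circulating replicate 2 was 4.18 times circulating replicate 1, and the fold of 8.47 was 4.94 without it. Cdc42bpb, a kinase downstream of Cdc42 that regulates actomyosin, was high in circulating replicate 3 (147.7 CPM) and at 24.4 and 30.3 CPM in the others, against 8.13 to 10.03 CPM in muscle. Tes, the focal adhesion gene of testin, was at 37.2, 14.2 and 17.7 CPM against 2.65 to 3.65 CPM. It was at 6.79, 1.72 and 2.95 times the floor in circulating replicates 1, 2 and 3. Other genes of the same structures, chosen after their values were seen, overlapped between the groups: Vasp was at 35.1, 62.5 and 31.4 CPM against 48.5, 46.6 and 18.5 CPM.

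Mesenchymal and developmental members were few, and for several of them the size of the difference depended on a single library. Osr1, a transcription factor of embryonic and adult FAPs, was at 95.4, 36.4 and 36.1 CPM in the circulating libraries against 13.7, 9.24 and 11.6 CPM in muscle. Circulating replicate 1 was the high library, and without it the edgeR log2 difference of 1.70 was 0.79. Wnt10b, a Wnt ligand that restrains adipocyte formation, was at 67.8, 73.4 and 82.0 CPM in the circulating libraries against 30.1, 24.9 and 1.64 CPM in muscle. The circulating libraries were alike, whereas muscle replicate 3 was near 0 and without it the log2 difference of 1.35 was 0.76. Uchl1, a ubiquitin hydrolase, was at 61.8, 114 and 55.8 CPM in the circulating libraries against 17.4, 19.8 and 3.21 CPM in muscle, again with muscle replicate 3 the lowest. Mkx, the tendon transcription factor Mohawk, was at 10.2, 13.5 and 68.3 CPM in the circulating libraries against 2.06, 3.55 and 1.83 CPM in muscle, so that circulating replicate 3 alone was high. Col11a2, a minor chain of cartilage fibrils, was at 31.9, 55.7 and 108 CPM in the circulating libraries against 3.43, 3.0 and 8.95 CPM in muscle. These 5 genes did not overlap between the groups, which the rule fixes.

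Foxp2, Sema3e and Itgb8, a transcription factor, a guidance ligand and an integrin chain, were at 1.31 to 1.65, 2.15 to 4.96 and 1.46 to 1.61 times the floor in circulating libraries.

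Few relatives of these genes were in the set. In the list of 29 Wnt pathway genes Wnt10b was the only member, and 2 genes were higher and 4 lower in circulating libraries with no overlap. Of its 21 genes with a mean of at least 10 CPM, 2 were higher and 3 lower, beside 11.5% and 9.61% of all genes at that level. In the list of 20 FAP and fibroblast identity genes Osr1 was the only member, and 2 were higher and 9 lower, all 20 having a mean of at least 10 CPM. Of 36 listed markers of adventitial and early mesenchymal progenitors, 18 were higher in circulating libraries with no overlap and 1 lower, and 5 passed the CPM rule. Among the 34 with a mean of at least 10 CPM it was 17 higher and 1 lower. Uchl1 was the member among those 5, and the others were left out by name. The lists of 22 collagens and of 31 matrix glycoproteins and proteases held no member, but they do not include the members Col11a2, Adamts18 and Adamts20.

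Glycan and sulphate transfer was represented by Galnt16, which starts O-linked glycosylation, and by Chst1, which adds sulphate to keratan chains. Galnt16 was at 208, 272 and 222 CPM in circulating replicates 1, 2 and 3 and at 56.1, 72.5 and 75.01 CPM in muscle replicates 1, 2 and 3. Its circulating libraries spanned 1.31-fold, with means of 234 ± 33.9 against 67.9 ± 10.3 CPM (SD, n = 3). Chst1 was at 33.2, 93.4 and 36.6 CPM in the circulating libraries against 11.2, 13.7 and 4.29 CPM in muscle, with circulating replicate 2 the high library. Of 23 measured genes of hyaluronan and glycan synthesis, 4 were higher and 2 lower in circulating libraries with no overlap. For the 17 with a mean of at least 10 CPM the counts were 2, Galnt16 included, and 1, beside 11.5% and 9.61% of all genes at that level.

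Membrane traffic gave the largest share of members clear of the floor, 4 of 8. Stx2, a syntaxin that drives membrane fusion, was at 119, 115 and 82.2 CPM in circulating replicates 1, 2 and 3 and at 11.0, 19.3 and 17.7 CPM in muscle replicates 1, 2 and 3. Its lowest circulating level was 4.27 times its highest muscle level, where the rule asks for 2, and the fold was 6.60. Rab5b, a GTPase of early endosomes, was at 39.6, 82.1 and 52.4 CPM in the circulating libraries against 11.9, 7.19 and 6.81 CPM in muscle. Rab32, a GTPase of lysosome-related organelles, was at 55.3, 37.3 and 48.7 CPM in the circulating libraries against 16.4, 3.08 and 4.92 CPM in muscle, and muscle replicate 1 was its high muscle library. Tmem120a, a nuclear envelope and membrane protein, was at 174, 58.0 and 113 CPM in the circulating libraries against 17.9, 22.7 and 10.9 CPM in muscle. Circulating replicate 2 was the low library for Tmem120a. Abca7, a lipid transporter of the ABC family, was at 107, 54.7 and 76.8 CPM in the circulating libraries against 8.83, 13.3 and 4.92 CPM in muscle, a fold of 8.82.

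Among receptors and channels Adgrg2 and Kcnk5 were clear of the floor. Adgrg2, an adhesion G protein-coupled receptor, was at 90.7, 91.8 and 73.5 CPM in the circulating libraries against 5.1, 8.77 and 21.5 CPM in muscle. Kcnk5, a background potassium channel, was at 74.5, 76.9 and 79.8 CPM in the circulating libraries against 25.8, 17.5 and 24.8 CPM in muscle and had the most even circulating levels of the 27, within 1.07-fold. Adra1b, the alpha-1B adrenergic receptor, was at 15.5, 16.4 and 17.0 CPM in the circulating libraries against 3.81, 0.948 and 2.08 CPM in muscle, or 3 to 10 times the floor in its lowest circulating library. Adra1b directly neighbours the member Ttc1 on the RefSeq map. Ttc1, a cochaperone-like tetratricopeptide protein, was at 75.5, 75.7 and 51.3 CPM in the circulating libraries against 9.36, 3.55 and 9.9 CPM in muscle.

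Mitochondrial and metabolic members clear of the floor were Mrpl12, a protein of the mitochondrial ribosome, Hint2, Dcakd, Egln2 and Prkag1. Mrpl12 was at 88.7, 110.1 and 69.7 CPM in the circulating libraries against 31.4, 32.4 and 26.0 CPM in muscle. Its fold was 2.99, with no circulating library standing apart. Egln2, a prolyl hydroxylase that marks hypoxia-inducible factors for degradation, was at 54.1, 65.4 and 166 CPM in the circulating libraries against 11.8, 27.01 and 24.9 CPM in muscle. It only just passed the rule, its lowest circulating level being 2.0016 times its highest muscle level, and without circulating replicate 3 its fold of 4.49 was 2.81. Prkag1, a regulatory subunit of the energy sensor AMPK, was at 42.8, 36.1 and 31.9 CPM in the circulating libraries against 6.17, 14.4 and 6.62 CPM in muscle. Between 3 and 10 times the floor lay Mrpl19, Fastk, Dnajc30, Coa7, Ptrh2 and the mitochondrial thymidine kinase gene Tk2. The listed respiratory chain and mitochondrial genes gave no member, with 3 of 20 measured genes higher and 1 lower with no overlap, beside 11.5% and 9.61% of all genes of their level.

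In the nucleus Phc2, a subunit of a Polycomb complex, was at 91.5, 114 and 133 CPM in the circulating libraries against 22.9, 14.7 and 27.7 CPM in muscle. Senp3, a SUMO protease of the nucleolus, was at 117, 154 and 79.8 CPM in the circulating libraries against 39.4, 23.5 and 18.7 CPM in muscle. Muscle replicate 1 was its high muscle library. Fancc, of the Fanconi anaemia core complex, was at 45.4, 40.9 and 206 CPM in the circulating libraries against 5.94, 19.6 and 9.58 CPM in muscle, and its fold of 8.32 was 3.69 without circulating replicate 3. Fancd2, Palb2, Atm and Ercc6, which also act in DNA repair, were under 3 times the floor in at least 1 circulating library, at 11.6 to 48.9 CPM. Of 8 zinc finger genes in the set, Zfp277 and Zfp62 were at 3 to 10 times the floor and the other 6 under 3 times.

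Epithelial genes were few. Dmkn, a secreted protein of the epidermis, was at 31.7, 46.4 and 44.4 CPM in the circulating libraries against 5.48, 2.68 and 5.55 CPM in muscle. Its circulating levels were even and its fold was 8.93. Krt80, a keratin, was at 54.2, 72.1 and 55.0 CPM in the circulating libraries against 13.2, 13.8 and 15.3 CPM in muscle. Of 14 mesothelial and epithelial genes 7 were higher in circulating libraries with no overlap, and their sum was 61.8 to 90.1 CPM against 17.8 to 25.3 CPM. Of the 12 with a mean of 1 to 10 CPM it was 6, beside 41.5% of all genes at that level. The 4 defining markers were at under 3 times the floor in circulating libraries, Krt8 at 0.137 to 0.825, Upk3b at 0.153 to 0.607, Msln at 0.350 to 2.11 and Epcam at 1.10 to 2.02 times. Epcam did not overlap, at 3.55, 3.86 and 2.13 CPM against 1.90, 0.711 and 0.946 CPM. Muc16, the only member on that list, was at 33.1, 42.2 and 30.2 CPM against 10.4, 11.6 and 8.45 CPM and was at 1.31 to 1.57 times the floor in circulating libraries.

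**Figure D3:**
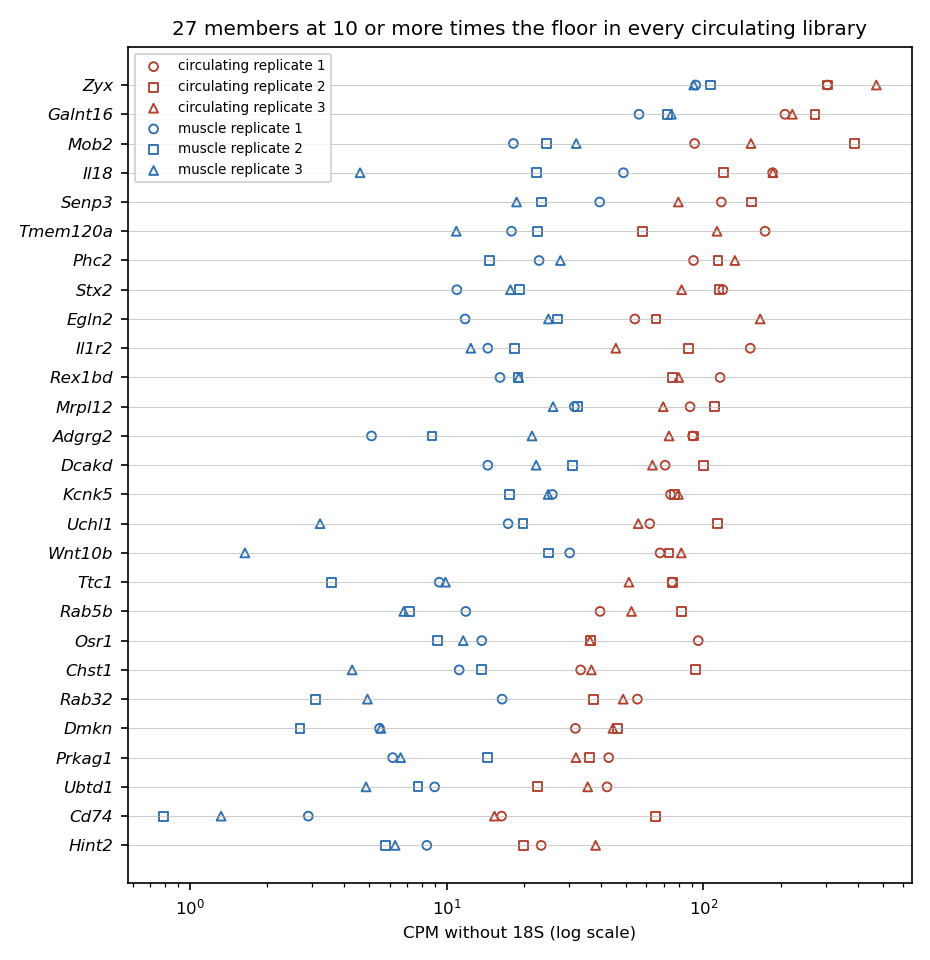
CPM without 18S (log axis) of the 27 members at 10 or more times the floor in every circulating library, with circulating libraries in red and muscle libraries in blue and a marker shape for each replicate. No red point overlaps the blue points of its gene, as the rule requires, and Mob2, Cd74 and Egln2 have single high circulating libraries.

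A single member, Ecscr, kept a gap of 2 or more when each library was divided by its own floor. Ecscr, an endothelial surface protein, was at 13.8, 15.1 and 38.7 CPM in the circulating libraries against 0.761, 2.68 and 1.51 CPM in muscle. Its lowest circulating level over the floor was 2.01 times its highest muscle level over the floor. The endothelial list it resembles had 1 of 15 genes higher with no overlap. Among the 8 genes of the list with a mean of at least 10 CPM it was 1, beside 11.5% of all genes at that level. The list's sums of 323 to 504 CPM in circulating and 248 to 508 CPM in muscle libraries overlapped. In all, 66 of the 169 members and 74 of the 6450 genes of at least 10 CPM (1.15%) were higher with no overlap after that division. The members had been chosen for a gap of at least 2 on the same levels, which favours them in this count. Division by the floor is informative where most reads of a gene are floor. Ecscr was not such a gene, at 9.85, 7.19 and 25.2 times the floor in circulating replicates 1, 2 and 3. Subtraction was applied to all genes with a length, and Ecscr met the rule after it.

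The 119 members near the floor included genes of families known from sensory organs, motile cilia and neurons. There were 10 vomeronasal receptor genes, of 535 in the table and 31 with at least 10 CPM in every circulating library. Vmn2r97, whose promoter is shown above, was at 16.8, 22.9 and 17.5 CPM in the circulating libraries against 2.66, 5.53 and 5.36 CPM in muscle. The circulating libraries were 1.28 to 1.41 times the floor and the muscle libraries 0.549 to 1.33 times. Over all 10 genes the range was 0.803 to 2.24 times the floor in circulating and 0.338 to 1.75 times in muscle libraries. These receptors were also among the genes that set the floor, and without the members it was 0.792, 1.19 and 0.825 in circulating replicates 1, 2 and 3. Receptor genes next to each other recurred, such as Vmn2r115 and Vmn2r117 with 1 coding gene between them, and reads that fit several copies could be split between them.

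Genes of motile cilia and synapses were at similar levels over the floor. The 4 axonemal dynein genes, Dnah6, Dnah9, Dnah11 and Dnah14, had 22.9 to 43.5 CPM in circulating libraries, compared with 5.18 to 13.1 CPM in muscle, which was 1.52 to 3.11 and 0.974 to 2.38 times the floor. Csmd2, a large synaptic membrane protein, was at 15.0, 16.4 and 19.8 CPM in the circulating libraries against 4.95, 5.92 and 3.59 CPM in muscle, or 0.80 to 1.32 times the floor in circulating libraries. Mdga2, a synaptic adhesion protein, was at 1.14 to 1.18 times the floor in circulating and 0.963 to 1.17 times in muscle libraries. Over the floor the groups overlapped for Csmd2, Mdga2, Dnah9 and Dnah11 and did not for Dnah6 and Dnah14. Kcnq3, Scn9a, Sv2b, Cntn4 and Ptprt, with roles in neurons, were also under 3 times the floor in every circulating library. Rpgrip1, a gene of the cilium base, was at 1.51 to 1.92 times the floor in circulating libraries. Apart from Rpgrip1, genes in this paragraph were chosen as examples after their values were seen.

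Of the 31 members given no role, 3 were at 10 times the floor or more (Rex1bd, Ttc1 and Ubtd1), 4 between, 23 near it and 1 had no length. Rex1bd was at 116, 75.7 and 80.1 CPM in the circulating libraries against 16.1, 18.95 and 19.1 CPM in muscle. Tmem26, a membrane protein with a wide gap between the groups, was at 86.3, 43.1 and 63.3 CPM against 4.26, 8.45 and 7.19 CPM. Junos, transcribed antisense to Jun, was at 15.5, 13.2 and 11.3 CPM against 3.58, 5.13 and 3.34 CPM, and without strand its reads cannot be told from those of Jun.

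Some members near the floor in 1 library stood well above it in another. Slc1a4, a neutral amino acid transporter, was at 35.0, 13.5 and 60.5 CPM in the circulating libraries against 3.12, 5.45 and 4.1 CPM in muscle, or 11.1, 2.87 and 17.6 times the floor in circulating replicates 1, 2 and 3. Zfp607a was at 15.6 times the floor in circulating replicate 1, and Hells, a chromatin remodeller, at 11.8 times. Carf, a calcium-responsive transcription factor, was even at 61.4, 49.6 and 58.6 CPM in the circulating libraries against 11.9, 12.2 and 9.96 CPM in muscle, or 5.27, 2.83 and 4.59 times the floor in circulating replicates 1, 2 and 3. Septin3 and Zfp951, among the members with the largest gap, were at 12.99 to 17.4 and 11.2 to 26.0 CPM in circulating and at 1.45 to 2.68 and 0.761 to 2.08 CPM in muscle libraries. Septin3 was near the floor in every circulating library, at 2.19 to 2.78 times it. Zfp951 was at 2.95, 3.06 and 6.26 times the floor in circulating replicates 1, 2 and 3.

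The circulating libraries did not contribute evenly. The highest circulating value was in replicate 2 for 82 members, in replicate 3 for 50 and in replicate 1 for 40. Among the 119 near the floor it was in replicate 2, the library with the highest floor, for 60. That ranking depends on the silent genes used. Over 24 olfactory receptor genes with a length the median was 1.08, 0.842 and 0.998 in circulating replicates 1, 2 and 3. In 23 members the circulating libraries spanned at least 3-fold, against a median span of 1.61 over all members. Of these, 9 were highest in replicate 1, 6 in replicate 2 and 8 in replicate 3. Their median fold of 8.47 with all libraries was 4.77 without the highest circulating library, and the lowest was 2.81.

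**Figure D4:**
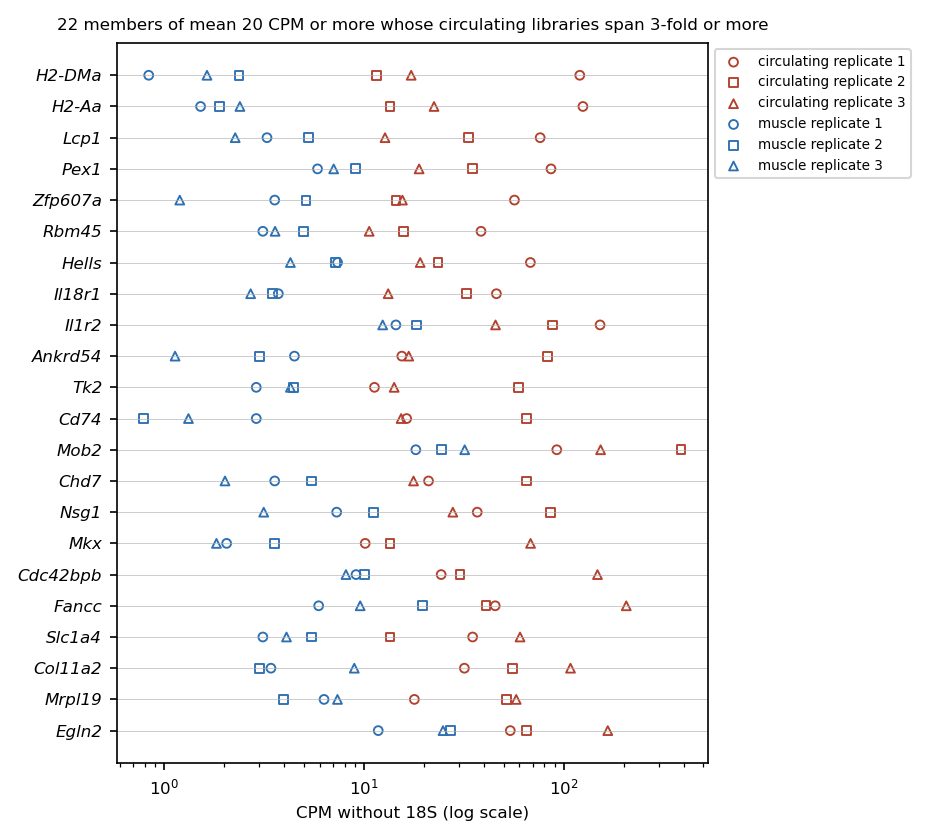
CPM without 18S (log axis) of 22 of the 23 members whose circulating libraries span 3-fold or more, those with a mean circulating level of at least 20 CPM, ordered by the circulating replicate that is highest. H2-DMa, H2-Aa and Lcp1 are set apart by replicate 1, Ankrd54, Tk2 and Cd74 by replicate 2, and Mkx, Cdc42bpb and Fancc by replicate 3. All remaining circulating points stay above the muscle points, as the rule requires.

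Genes at the limits of the rule differed little across them. Egln2 and Rpgrip1 were just inside the gap of 2, at 2.0016 and 2.0043, and Chd1l and Sfi1 just outside, at 1.9986 and 1.9982. Myb had a lowest circulating level of 10.02 CPM, and Grik1 and Acss1, of 9.92 CPM, were left out.

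Upstream sequence differed in base composition between the classes. A GC box lay in the 250 bases upstream of 45.9% of the 135 matched members, against 66.1% of the genes of at least 10 CPM and 35.4% of all RefSeq promoters. For members at 10 times the floor or more it was 56.0% (14 of 25), for those between 70.6% (12 of 17) and for those near the floor 38.7% (36 of 93). The median GC content was 52.8% near the floor and 59.2% at 10 times or more, against 60.8% for genes of at least 10 CPM and 52.4% over all RefSeq promoters. CCAAT boxes were in 42.2% of members, 39.4% of genes of at least 10 CPM and 37.5% of all promoters. AP-1 matches were in 9.63%, 5.94% and 7.82%, TATA boxes in 10.4%, 8.76% and 14.3%, and cAMP response elements in 3.70%, 3.50% and 1.77% of the same sets. On the map 82 of the 169 members found in RefSeq (48.5%) overlapped another gene, against 48.4% of genes of at least 10 CPM, and reads of overlapping genes may be shared.

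Across all genes the test found little. With edgeR's quasi-likelihood test, 1 of 20658 genes was higher in circulating FAPs after Benjamini-Hochberg adjustment (0.00484%), and none of the 172 members, whose lowest adjusted p was 0.116 in edgeR. At an unadjusted p under 0.05, 1893 genes were higher (9.16%) and 100 of the 172 members. DESeq2 called 215 genes higher (1.04%), 39 members among them, and 1692 (8.19%) without adjustment, with 127 members. The 39 included H2-Aa, H2-DMa, Cd74, Lcp1, Il1r2, Il18r1, Mob2, Stx2, Abca7, Adgrg2, Dmkn and Ecscr, and did not include Zyx, Galnt16, Il18, Osr1 or Wnt10b. The rule used the same contrast, so these counts describe the members and support nothing about them. The median log2 difference of the members was 1.42 with TMM, from 0.75 to 4.49, beside 0.12 over all genes, and 2.19 beside 0.88 with scaling on abundant genes.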

How the data were processed

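RNA-seq counts came from FAPs of peripheral blood and muscle, 3 libraries each, grouped by their labels. The authors deposited raw counts of reads per gene symbol. The submitters' processing notes name featureCounts, STAR and Trim Galore and the build GRCm39; versions, options and annotation are not given in the sources used here. Per the labels' protocols, libraries were made with a transposase kit, and no label states that strand was kept. The members, gene lists and roles were chosen with earlier results of these data known.

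Counts other than the 2 18S symbols were scaled to CPM by their column total. Exon lengths are from GENCODE M21 on GRCm38, matched by symbol for 93.1% of symbols, and upstream sequences from RefSeq on GRCm38.p6. A level over the floor is CPM per kilobase divided by the median over the silent receptor genes of that library. Differences were fitted with edgeR 4.0.16 (robust quasi-likelihood test, TMM, filterByExpr, Benjamini-Hochberg threshold 0.05), with DESeq2 1.42.0 as an alternative, in R 4.3.3. The fit was tested on simulated counts. Other settings were scalings, thresholds of the rule, the floor, equal counts and left-out libraries. The depth of 3106011 counts in the shallowest library limits members near 10 CPM to about 31.1 counts there.

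The rule for named genes took the 10 members with the largest gap between the groups, the 10 with the highest mean CPM, up to 3 members from each of 39 lists, and the 2 genes on each side of each threshold. It gave 31 members, and values of some members are not reported here. Other genes were named by role after their values were seen.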

Additional observations from a re-analysis of the deposited data

How the results depend on the processing

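The rule gave 172 genes. It gave 20 with 18S in the total, 31 with TMM scaling, 87 with upper quartiles (81 of them members) and 281 with abundant genes as the scale (172 of them members). A minimum of 5 CPM gave 450 genes and of 20 CPM 56, and a gap of 1.5 times 430 and of 3 times 38. Subtraction of the floor, with the minimum of 10 CPM asked again, gave 58, of which 56 were members. Leaving out each library gave 255 to 617 genes. The count of genes higher past the threshold, 1 in edgeR, was 215 with DESeq2, 0 with upper quartile scaling, 5 without the filter and 0 to 2 when each library was left out. Members past it were 0 in every edgeR setting tried (100 at an unadjusted p under 0.05) and 39 with DESeq2. The members' median log2 difference of 1.42 was 2.14 with upper quartiles and 2.19 with abundant genes as the scale, and 1.28 to 1.41 without each library; the cause of these shifts was not tested. Of 248 recomputed values of single named genes 34 moved by more than their spread and 0 changed sign. With the replicate number as a block, 0 genes were higher, 0 members passed and the median was 1.44; libraries of the same number had correlations of deviations of 0.00585 to 0.0378, so the numbers were not taken as pairs. Members near 10 CPM rest on few counts in circulating replicate 2, and most lie within 3 times a floor that itself differs between the groups.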
